A study of Mus musculus with 6 samples.

Results

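The genes described here are 10 factors that shorten the poly(A) tails of messenger RNAs, measured by RNA-seq in muscle satellite cells of mice on 2 diets. They are the tristetraprolin genes Zfp36, Zfp36l1 and Zfp36l2, the Btg and Tob genes Btg1, Btg2, Btg3, Tob1 and Tob2, and 2 genes of the CCR4-NOT deadenylase, Cnot1 and Cnot7. They were chosen by family name, and all 10 were found by Entrez gene ID among the 27179 IDs of the count tables and passed the filter on low counts, which kept 13202 genes. The list was also selected on measured values, since the differences of Btg2 and Zfp36 between the diets were known when it was drawn up. The diet values and adjusted p-values of these 10 genes are therefore a description that places them among all genes, and they support no pattern independently.

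Satellite cells are the resident stem cells of skeletal muscle. They were sorted by flow cytometry from the muscle of wild-type C57Bl/6N mice, with 3 libraries from mice on a high-fat diet and 3 from mice on chow. All carried the same genotype and no transgene is named, and the labels used here give no age, sex or length of feeding. The labels do not say whether each library came from its own animal or from a pool, so the spread that p-values measure here may be technical in part.

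Tristetraprolin proteins carry a pair of zinc fingers that bind AU-rich elements in the 3′ untranslated region (3′ UTR) of messenger RNAs, and they bring the CCR4-NOT complex to those transcripts. Btg and Tob proteins dock onto the Caf1-type deadenylases of the same complex through their shared Btg domain, and several of them slow the cell cycle. Cnot1 is the scaffold on which CCR4-NOT is built, and Cnot7 is one of its Caf1-type deadenylases. In quiescent satellite cells Zfp36 is known for destabilising the transcript of the myogenic factor Myod1. Zfp36 and Btg2 are also immediate early genes, which cells switch on within minutes of a stimulus, and Btg2 is a target of p53.

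Total counts ran from 14930394 to 18217818 per library. Levels are given in CPM, read counts scaled to a common library size with edgeR's TMM factors, and a count of 3 corresponded to between 0.162 and 0.195 CPM. High-fat diet library 1 and chow library 3 stood apart from the other libraries on the first principal component, with scores of -43.1 and 60.8 against -12.3 to 6.64 in the other 4, and values without both are given where a call rests on them. Both also had the fewest genes with any count, 13879 and 13655 against 14939 to 15467 in the other 4. All 10 satellite cell markers on the list used were detected. Their summed level was 4249 to 5331 CPM on the high-fat diet and 4968 to 5716 CPM with chow, and 6 of them were lower and 4 higher on the high-fat diet, with 0 called by edgeR. Pax7, the defining factor, was at 171, 247 and 283 CPM against 370, 405 and 430 CPM (adjusted p = 0.180 in edgeR, 0.0123 in DESeq2 and 0.0281 in limma-voom), and Itga7, a surface integrin, was higher without overlap at 404.5, 381 and 322 CPM against 260, 193 and 280 CPM (adjusted p = 0.328 in edgeR). The summed markers of endothelial cells, of fibroblasts and their progenitors, and of smooth muscle and pericytes overlapped between the diets, with highest sums of 372, 1575 and 1365 CPM. Immune markers summed to 8.09 to 29.7 CPM against 21.6 to 50.5 CPM, with Adgre1, Cd3e and Tyrobp at 0 in all 6 libraries. Glial and tenocyte markers also overlapped (60.1 to 78.5 CPM against 76.2 to 99.9 CPM). The 10 myofibre markers did not overlap between the diets in their sum (30.8 to 38.7 CPM against 39.2 to 44.8 CPM), and the part of these few reads in the results below was not tested. Fewer cells of a type and less RNA per cell cannot be told apart in such bulk samples.

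The Zfp36 and Btg2 genes are shown first by their upstream sequence, because these were the members whose transcripts were called lower with the high-fat diet. RefSeq (GRCm38.p6) start site windows, from 250 bases before to 50 bases after the start, were matched for 7 of the 10 members. Of these, the 200 bases before the start sites of Zfp36 (chr7:28379229-28379428, minus strand) and Btg2 (chr1:134079156-134079355, minus strand) are printed 5′ to 3′. Capitals mark matches to the EGR motif GCGGGGGCG and the CArG box in Zfp36, and to the cyclic AMP response element (CRE) TGACGTCA in Btg2.
Zfp36: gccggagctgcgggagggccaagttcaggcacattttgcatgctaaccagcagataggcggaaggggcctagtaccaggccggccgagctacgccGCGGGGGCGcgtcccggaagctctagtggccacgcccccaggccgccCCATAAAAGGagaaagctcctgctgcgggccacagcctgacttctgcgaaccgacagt
Btg2: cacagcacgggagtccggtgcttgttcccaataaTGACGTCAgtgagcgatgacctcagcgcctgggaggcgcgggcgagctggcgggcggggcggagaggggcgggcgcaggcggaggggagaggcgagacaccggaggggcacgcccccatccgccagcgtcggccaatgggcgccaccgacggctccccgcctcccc
The CArG box is the site known to bind serum response factor, and the CRE the site known to bind CREB, both of which act at immediate early genes. In Zfp36 the EGR match began 105 bases and the CArG match 58 bases before the RefSeq start, while GENCODE M21 also holds a transcript that starts further upstream. In Btg2 the CRE began 166 bases before the start.

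A set of 8 motifs was searched on both strands of every window, namely the CArG box, the CRE TGACGTCA, its first letters TGACG, AP-1 (TGANTCA), EGR (GCGGGGGCG), the GC box (GGGCGG), the TATA box (TATAAA) and an NF-kB core (GGGANTTCC). Among 32851 RefSeq windows of this length, 1.63% held a CArG box, 1.79% a CRE and 2.91% an EGR match. Zfp36 was the only one of the 7 members with a CArG box or an EGR match, and Btg2 the only one with a CRE. Zfp36l1 had an AP-1 match 129 bases before its start (7.81% of windows) and, like Btg1 and Tob1, a TATA box (13.6%). The 6 bases of the GC box occurred in Btg1, Btg2, Btg3, Tob1, Tob2 and Zfp36 (35.7%), in Zfp36 overlapping the first base of the CArG match, and TGACG stood in Btg1, Btg2 and Tob1 (20.8%), in Btg2 as part of the CRE. The NF-kB core occurred in 0 of the 7 members and in 1.68% of windows. Of 21 genes from a list of immediate early genes that had a window, 2 (Egr2 and Srf) held a CArG box and 2 (Dusp1 and Maff) a CRE. An EGR match stood in 6 (Fosb, Fosl2, Klf2, Klf4, Nr4a1 and Srf). TGACG stood in 15 of the 21, the GC box in 19, the TATA box in 5, and AP-1 and the NF-kB core in 0. A match of letters is a description and does not show that a factor binds.

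The binding heptamer of the tristetraprolin family, TATTTAT in DNA letters, also occurs in the 3′ UTRs of the family's own transcripts. It was found 3 times each in Zfp36, Zfp36l1 and Zfp36l2, 2 times in Btg3, once each in Btg2, Tob2 and Cnot7, and 0 times in Btg1, Tob1 and Cnot1 (GENCODE M21 transcripts, the one with the longest 3′ UTR per gene). Of 11456 tested genes with a 3′ UTR, 4.37% had 3 or more and 68.6% had 0. The Zfp36 3′ UTR is short, at 774 bases, and its density of heptamers was above that of 99.1% of these genes, with Btg3 (439 bases) above 99.4%. The 30-base stretch with the most heptamers is given for 5 members, with the heptamer in capitals, to show how closely the copies in Zfp36 stand.
Zfp36: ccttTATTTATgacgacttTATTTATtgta
Zfp36l1: ttatcaaaacgTATTTATtgccaaactatg
Zfp36l2: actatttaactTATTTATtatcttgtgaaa
Btg2: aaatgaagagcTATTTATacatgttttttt
Btg3: ttggacttgagTATTTATatattgtgcatt
These stretches lie at chr7:28376958-28376987, chr12:80108421-80108450, chr17:84184913-84184942, chr1:134077248-134077277 and chr16:78360040-78360069, all on the minus strand of GRCm38. Zfp36 was the one member with 2 heptamers within 30 bases.

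**Figure D1:**
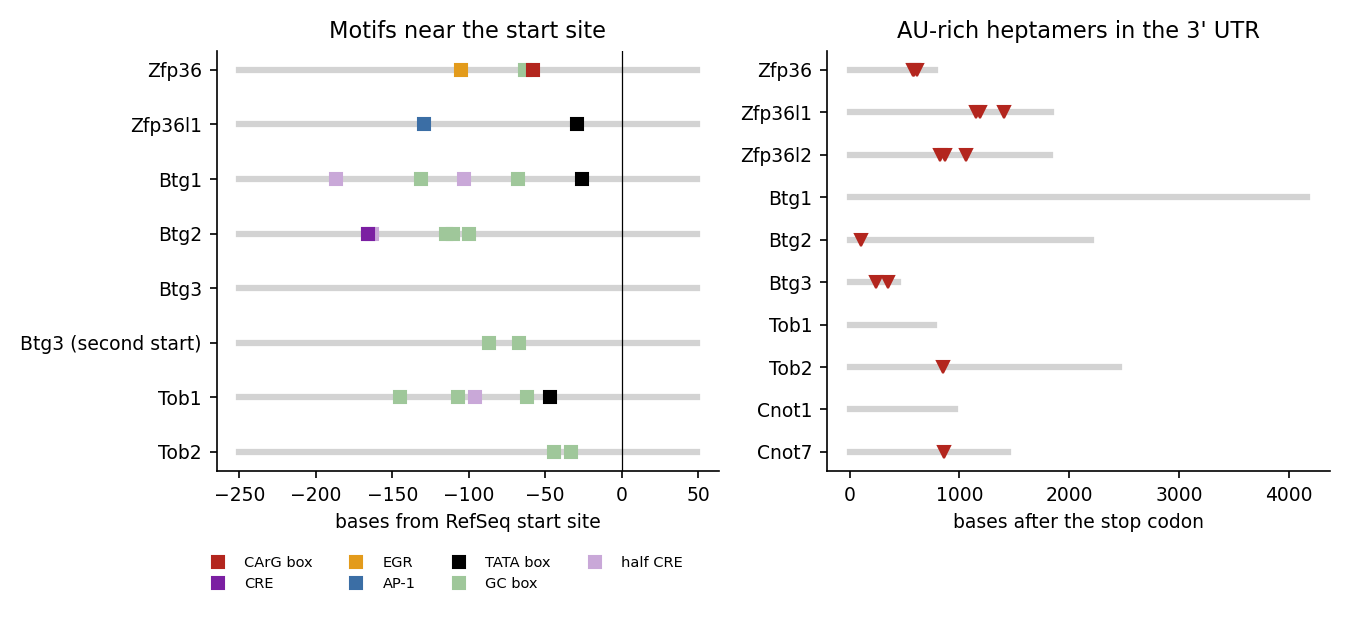
Left, motif matches (squares, coloured by motif) on the grey window from 250 bases before to 50 bases after the RefSeq start site (x axis, bases) for 7 members, Btg3 having 2 start sites. Right, TATTTAT heptamers (triangles) along the 3′ UTR (grey line, bases after the stop codon) of all 10 members, with 3 in each Zfp36 family gene and none in Btg1, Tob1 and Cnot1.

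Compared per kilobase of transcript, the Zfp36 family and Btg1 were the most abundant members in chow libraries and the CCR4-NOT genes among the least. The order in chow was Zfp36l1 (523 ± 54.9 CPM per kb, SD, n = 3), Zfp36l2 (347 ± 13.2), Btg1 (288 ± 11.6), Zfp36 (270 ± 30.4), Btg2 (153 ± 0.352), Tob2 (106 ± 11.3), Tob1 (94.0 ± 7.92), Cnot1 (37.0 ± 7.50), Btg3 (27.8 ± 6.03) and Cnot7 (22.4 ± 4.34). Library values overlapped between Btg1 and Zfp36, between Tob2 and Tob1, and between neighbours from Cnot1 down, so that these pairs cannot be ordered. With the high-fat diet Zfp36 was at 112 ± 25.6 CPM per kb, where its library values overlapped those of Tob2 (85.0 ± 20.2). Btg2 was at 49.7 ± 15.7 CPM per kb, below Tob1 (77.8 ± 6.85) in every library, whereas in chow it lay above both Tob genes. Zfp36l1 (425 ± 48.1) and Zfp36l2 (400 ± 112) overlapped with the high-fat diet. The lengths are those of GENCODE transcripts, taking the one with the longest 3′ UTR per gene. The isoform made in these cells was not measured. For Zfp36 this transcript, of 2.79 kb, is longer than the whole RefSeq gene (28376784 to 28379228). With a shorter length its CPM per kb would be higher, so its place in the order and its family share depend on this choice.

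Zfp36, the founding member of the tristetraprolin family (GRCm38 chromosome 7, 28376784 to 28379228, minus strand), fell with the high-fat diet. Its level was 256, 287 and 392 CPM in libraries 1, 2 and 3 of the high-fat diet and 663, 830 and 771 CPM in chow libraries 1, 2 and 3. Every high-fat diet value lay below every chow value, and library 3 was the highest of its diet. The log2 change, high-fat diet over chow, was -1.27 (SE 0.19), which is 2.42-fold lower (adjusted p = 0.0102 by Benjamini-Hochberg, edgeR quasi-likelihood test over all genes). The adjusted p was 0.0839 without high-fat diet library 2, 0.0869 without chow library 2 and 0.0780 without chow library 3, and without both libraries that stood apart it was 0.201 with a log2 change of -1.13.

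Zfp36l1 and Zfp36l2, the paralogs that bind the same elements, did not pass the test. Zfp36l1 (chromosome 12, 80107760 to 80113013) was at 1319, 1385 and 1109 CPM on the high-fat diet and 1450, 1490 and 1752 CPM with chow. These values did not overlap, but the difference was small (a log2 change of -0.30 with an SE of 0.14, adjusted p = 0.671 in edgeR). Zfp36l2 (chromosome 17, 84183924 to 84187947) was at 1825, 1371 and 1040 CPM on the high-fat diet and 1222, 1178 and 1271 CPM with chow. Its high-fat diet libraries spread on both sides of the narrow chow range, with library 1 highest and library 3 lowest (a log2 change of 0.21 with an SE of 0.18, adjusted p = 0.936 in edgeR). Without high-fat diet library 1 its log2 change was -0.0095.

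Within the Zfp36 family the make-up of the transcripts differed between the diets. Of the family's CPM per kb, Zfp36 made up 8.75%, 10.8% and 17.4% on the high-fat diet and 22.2%, 26.3% and 22.6% on chow. Zfp36l1 was close to the same share throughout, 45.5% ± 3.29 against 45.8% ± 1.95 (SD, n = 3 each). Zfp36l2 took 49.2%, 40.7% and 36.5% against 32.4%, 29.5% and 29.5%, with no overlap. Summed over the family, the level was 937 ± 123 CPM per kb on the high-fat diet and 1140 ± 77.3 on chow. These shares rest on the same contrast as the levels and were not tested. A lower share of Zfp36 raises the shares of the others, and the size of its share depends on the transcript length used.

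**Figure D2:**
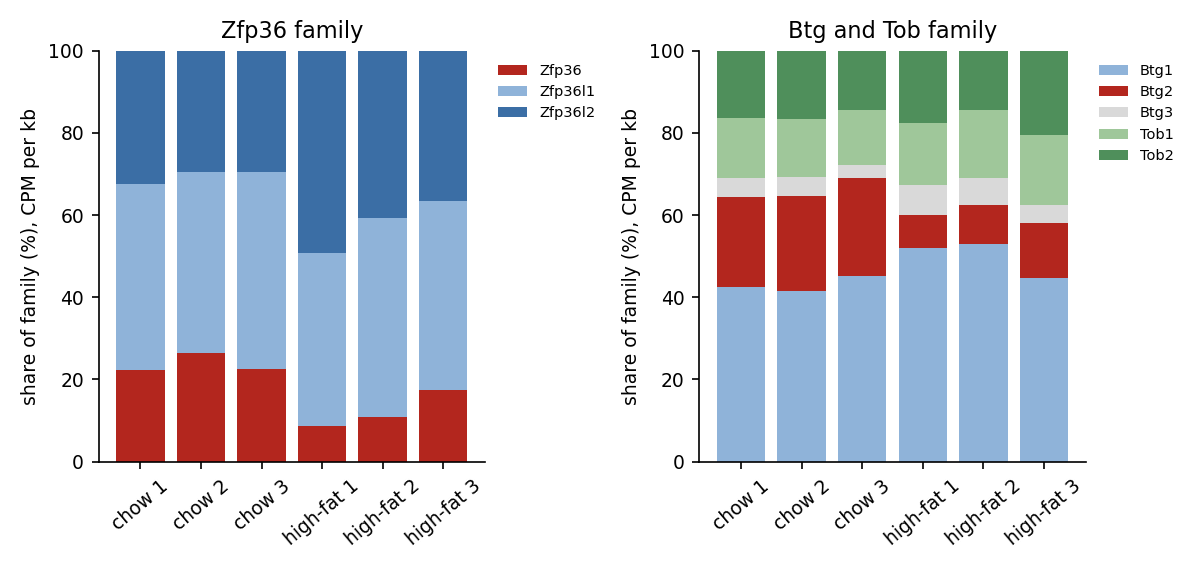
Share of each gene in its family's summed CPM per kb of transcript (y axis, %) in each library (x axis), for the Zfp36 family on the left and the Btg and Tob family on the right. Zfp36 takes 8.75% to 17.4% with the high-fat diet and 22.2% to 26.3% with chow, and Btg2 takes 7.84% to 13.4% and 22.0% to 23.7%.

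Btg2, an antiproliferative gene also known as TIS21 and PC3 (chromosome 1, 134074865 to 134079155, minus strand), fell further than any other member. Its level was 106, 117 and 186 CPM in libraries 1, 2 and 3 of the high-fat diet and 421, 422 and 420 CPM in chow libraries 1, 2 and 3. The chow values were nearly identical, and the high-fat diet values were all lower, with library 3 again the highest of its diet. The log2 change was -1.63 (SE 0.21), which is 3.09-fold lower (adjusted p = 0.00521 in edgeR). Btg2 passed in all 6 fits with 1 library left out, with log2 changes from -1.91 to -1.47 and adjusted p from 0.00047 to 0.0492. Without both libraries that stood apart the log2 change was -1.47 and the adjusted p 0.154.

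The other Btg and Tob genes did not pass. Btg1, the closest relative of Btg2 and a gene of quiescent cells (chromosome 10, 96617001 to 96622813), was at 1289, 1167 and 1134 CPM on the high-fat diet and 1487, 1375 and 1458 CPM with chow (a log2 change of -0.27 with an SE of 0.13, adjusted p = 0.688 in edgeR). Tob1 (chromosome 11, 94209842 to 94215495) was at 171, 167 and 196 CPM against 233, 215 and 197 CPM (a log2 change of -0.27 with an SE of 0.18, adjusted p = 0.852 in edgeR). In both genes all high-fat diet values lay below all chow values, in Tob1 by less than 1 CPM. Tob2 (chromosome 15, 81848270 to 81858326) was at 360, 266 and 433 CPM against 476, 458 and 387 CPM, with overlap (a log2 change of -0.32 with an SE of 0.19, adjusted p = 0.804 in edgeR). Btg3 (chromosome 16, 78359860 to 78377181) was at 52.3, 40.4 and 31.0 CPM against 44.6, 43.8 and 29.5 CPM (a log2 change of 0.07 with an SE of 0.35, adjusted p = 1.00 in edgeR), and the diets overlapped. Btg1 has copies on the X chromosome, Btg1b and Btg1c, which were at 1.63 to 10.5 and 1.11 to 11.3 CPM on the high-fat diet and 8.79 to 18.7 and 8.54 to 16.5 CPM with chow. How reads shared with these copies were counted is not given in the sources used here.

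Within the Btg and Tob family, Btg2 made up 7.84%, 9.65% and 13.4% of the CPM per kb with the high-fat diet and 22.0%, 23.2% and 23.7% with chow. Btg1 held the largest share in every library, 44.8% to 52.8% with the high-fat diet and 41.4% to 45.2% with chow, and these ranges overlapped. Tob1 held 15.1% to 16.9% against 13.4% to 14.6%, without overlap. A lower share of Btg2 raises the shares of the other genes. The level of Tob1 itself was lower with the high-fat diet, at a mean of 178 against 215 CPM, and the shares were not tested. Summed over the family, the level was 481 ± 34.5 CPM per kb (SD, n = 3) on the high-fat diet and 669 ± 27.5 (SD, n = 3) on chow, without overlap.

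Neither CCR4-NOT member passed the test. Cnot1, the scaffold (chromosome 8, 95718931 to 95808113), was at 277, 324 and 268 CPM on the high-fat diet and 298.2, 255 and 379 CPM with chow, and the 2 diets overlapped (a log2 change of -0.10 with an SE of 0.19, adjusted p = 0.999 in edgeR). Cnot7, the deadenylase (chromosome 8, 40492538 to 40515847), was at 31.7, 51.0 and 68.7 CPM against 45.8, 61.9 and 67.8 CPM, also with overlap (a log2 change of -0.21 with an SE of 0.33, adjusted p = 0.992 in edgeR). Cnot1 overlaps Setd6 and 4 other annotated genes, and Cnot7 overlaps Vps37a. The strand setting of the counting is not known, so their reads are uncertain to that extent.

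**Figure D3:**
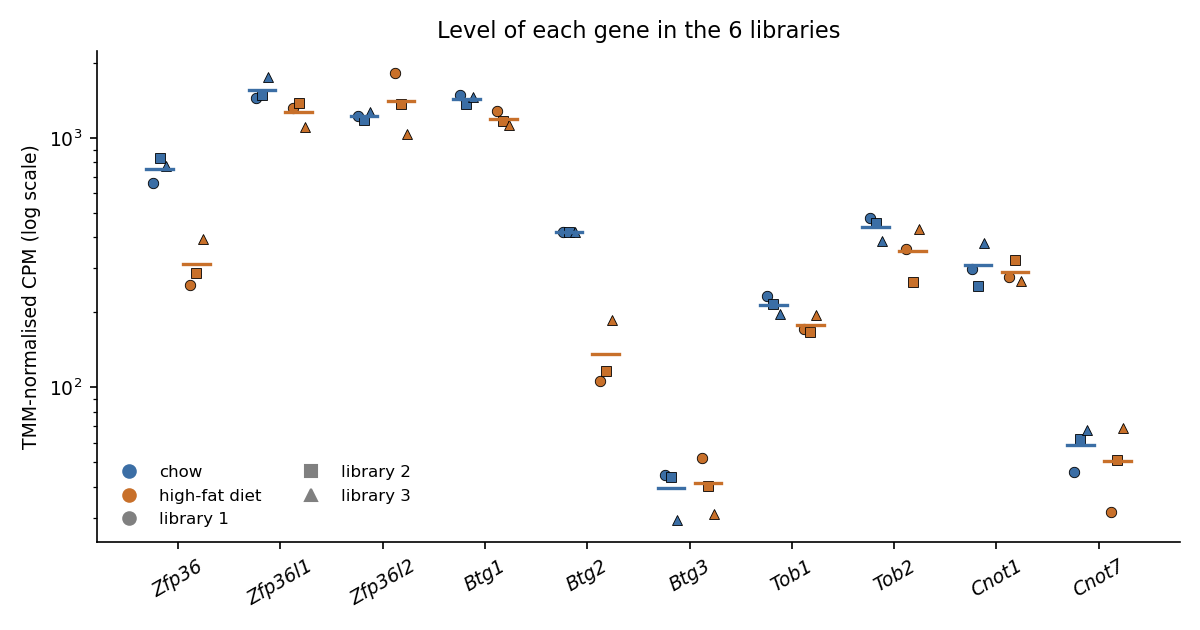
TMM-normalised CPM (y axis, log scale) of each of the 10 members in the chow (blue) and high-fat diet (orange) libraries, with the library number given by the marker shape and the diet mean by the bar. Zfp36 and Btg2 stand apart between the diets, with 256 to 392 against 663 to 830 CPM and 106 to 186 against 420 to 422 CPM, while the other members differ less.

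Over the 10 members, 2 were called lower and 0 higher by edgeR, against 0.167% and 0.0909% of the 13202 tested genes. Zfp36 and Btg2 were likewise the 2 members called by DESeq2 (1.50% of all genes called) and the 2 called by limma-voom (0.750%). The diets did not overlap for 5 members, all lower with the high-fat diet (7.87% of all genes), namely Zfp36, Zfp36l1, Btg1, Btg2 and Tob1. The median log2 change was -0.27, against -0.0081 over all genes tested, and 8 of 10 were negative. Since the list was written with these results known, nothing is read from these shares. Members also differed in how closely their libraries agreed. The coefficient of variation within chow ran from 0.229% (Btg2) to 21.7% (Btg3), and within the high-fat diet from 6.82% (Btg1) to 36.6% (Cnot7).

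The surrounding pathway was given by 6 lists, of which 5 hold other genes of messenger RNA decay and 1 holds the p38 signalling genes that act on Zfp36. They came to 90 genes in all, of which 88 were tested. In edgeR 0 of 88 passed (0.258% of all genes passed in either direction), 7 were under 0.05 before adjustment (7.65% of all genes), and DESeq2 (1.50%) and limma-voom (0.750%) each called 1. The median log2 change was -0.08, with 52 negative and 36 positive. The groups did not overlap for 6 genes that were lower and 9 that were higher (7.87% and 7.42% of all genes), which is near the background. List medians moved with single libraries, and each is given below with its range over the fits that leave out 1 library.

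The median log2 change of the remaining 10 CCR4-NOT genes was 0.18 (-0.061 without high-fat diet library 1 to 0.30 without high-fat diet library 2), with 4 negative and 6 positive and 0 at an unadjusted p under 0.05 in edgeR or called by DESeq2 or limma-voom. Cnot4, a ubiquitin ligase and the most abundant of them per kilobase, was at 110, 133 and 100 CPM on the high-fat diet and 72.4, 83.1 and 109 CPM with chow (adjusted p = 0.827 in edgeR). Tnks1bp1 was at 61.2, 94.7 and 126 CPM against 57.5, 85.5 and 75.5 CPM. Both overlapped between the diets.

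Among 13 other deadenylases and poly(A)-binding proteins the median was -0.11 (-0.19 without high-fat diet library 1 to 0.030 without chow library 3) and 0 passed in edgeR, DESeq2 or limma-voom, with 1 at an unadjusted p under 0.05. That gene was Pabpn1, the nuclear poly(A)-binding protein, at 87.2, 84.1 and 76.0 CPM on the high-fat diet and 43.3, 71.7 and 38.2 CPM with chow (a log2 change of 0.69 with an SE of 0.29, adjusted p = 0.574 in edgeR). Pan3, a subunit of the other main deadenylase, was at 187, 189 and 150 CPM against 163, 141 and 130 CPM. Pabpc1, the cytoplasmic poly(A)-binding protein and the most abundant of this list, was at 881, 771 and 653 CPM against 955, 785 and 811 CPM (a log2 change of -0.15 with an SE of 0.16).

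The 17 genes of decapping and 5′ decay had a median of -0.36 (-0.34 without chow library 2 to -0.052 without high-fat diet library 1, and -0.080 without chow library 1), with 13 negative and 4 positive, and 4 were lower without overlap (7.87% of all genes). With edgeR, DESeq2 and limma-voom 0 passed, and 2 had an unadjusted p under 0.05. Dcp2, the decapping enzyme, was at 30.6, 36.8 and 16.0 CPM on the high-fat diet and 49.7, 47.1 and 64.3 CPM with chow (a log2 change of -0.95 with an SE of 0.37, adjusted p = 0.511 in edgeR). Ddx6, a helicase that links CCR4-NOT to decapping, was at 506, 540 and 524 CPM against 754, 699 and 558 CPM (a log2 change of -0.36 with an SE of 0.16, adjusted p = 0.628 in edgeR). In both genes each high-fat diet value lay below each chow value.

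The 14 tested genes of the exosome and the SKI complex, which degrade RNA from the 3′ end, had a median of -0.20 (-0.50 without high-fat diet library 2 to -0.014 without high-fat diet library 3) with 10 negative, and 0 passed in edgeR, DESeq2 or limma-voom or had an unadjusted p under 0.05. Exosc5 was at 1.30, 3.26 and 0.809 CPM on the high-fat diet and 0.126, 0 and 0 CPM with chow, levels too near the floor for a fold change. Skiv2l, the SKI helicase, was at 15.5, 13.4 and 20.6 CPM against 33.4, 25.1 and 26.1 CPM (a log2 change of -0.77 with an SE of 0.45, adjusted p = 0.787 in edgeR). Exosc10, the most abundant of the list per kilobase, was at 11.6, 23.5 and 35.8 CPM against 31.3, 35.3 and 40.5 CPM.

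Of 25 other adaptors and AU-rich element binding proteins, 6 were higher and 1 lower without overlap (7.42% and 7.87% of all genes). The median was 0.03 (-0.018 without chow library 1 to 0.17 without chow library 3), edgeR called 0 with 3 under 0.05 before adjustment, while Samd4 was the 1 gene called by DESeq2 and by limma-voom. Samd4 encodes a Smaug protein, which brings CCR4-NOT to stem-loop elements, and was at 679, 640 and 498 CPM on the high-fat diet and 330, 364 and 296 CPM with chow. Every high-fat diet value lay above every chow value (a log2 change of 0.88 with an SE of 0.17, adjusted p = 0.0586 in edgeR). Ybx3, a cold-shock domain RNA-binding protein, was at 329, 253 and 226 CPM against 210, 193 and 168 CPM (a log2 change of 0.50 with an SE of 0.19, adjusted p = 0.493 in edgeR). Its relative Ybx1, the most abundant of the list per kilobase, was at 230, 266 and 177 CPM against 264, 203 and 245 CPM.

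The p38 pathway phosphorylates Zfp36 protein and so limits its activity. Of 9 tested genes of this pathway 0 passed in edgeR, DESeq2 or limma-voom, 1 had an unadjusted p under 0.05, and the median was -0.12 (-0.19 without high-fat diet library 1, 0.12 without high-fat diet library 2 and 0.073 without chow library 2). Map2k3, a kinase that activates p38, was at 197, 236 and 249 CPM on the high-fat diet and 188, 162 and 117 CPM with chow (a log2 change of 0.55 with an SE of 0.21, adjusted p = 0.502 in edgeR). Ppp2ca, the catalytic subunit of the phosphatase PP2A, was at 362, 354 and 275 CPM against 441, 361 and 389 CPM. Dusp1, the phosphatase that switches p38 off, was at 537, 167 and 317 CPM against 428, 357 and 367 CPM, with high-fat diet libraries on both sides of chow. Protein and its phosphorylation were not measured.

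Known AU-rich transcripts and targets of the Zfp36 family were described by a list of 33 genes, of which 30 were tested. Fos and Jun, the AP-1 factors, were the 2 that edgeR called lower (0.167% of all genes), and it called 0 higher (0.0909%). By direction alone, 22 of the 30 log2 changes were negative and 8 positive. DESeq2 called 6 (1.50% of all genes) and limma-voom 5 (0.750%), and 13 had an unadjusted p under 0.05 (7.65%). The diets did not overlap for 13 lower and 2 higher genes (7.87% and 7.42% of all genes). The median log2 change was -0.41, against -0.0081 over the 13202 genes. Of the 30 genes, 7 also stood on the list of immediate early genes, among them Fos and Jun, and the median was -0.40 for these and -0.42 for the other 23. Of the 7, edgeR called 2, and 5 were lower and 0 higher without overlap. Of the 23, it called 0, and 8 were lower and 2 higher without overlap. The split follows that list only.

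Fos, also the most abundant of the list per kilobase, was at 922, 506 and 1031 CPM on the high-fat diet and 2348, 2310 and 2232 CPM with chow (a log2 change of -1.49 with an SE of 0.21, adjusted p = 0.00947 in edgeR). Jun was at 966, 529 and 932 CPM against 2021, 1643 and 1611 CPM (a log2 change of -1.12 with an SE of 0.20, adjusted p = 0.0394 in edgeR). In both genes high-fat diet library 2 was the lowest, whereas for Zfp36 and Btg2 it was library 1. Neither Fos nor Jun passed once chow library 3 was left out, and Jun also missed the threshold once high-fat diet library 2, chow library 1 or chow library 2 was left out. Without both libraries that stood apart 0 targets passed, with a median of -0.53. Myod1, chosen after its value was seen because Zfp36 is known to act on its transcript in satellite cells, was at 315, 171 and 131 CPM on the high-fat diet and 391, 332 and 283 CPM with chow (a log2 change of -0.70 with an SE of 0.27, adjusted p = 0.501 in edgeR), and the diets overlapped.

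The number of TATTTAT heptamers in the 3′ UTR, the feature that the Zfp36 family reads, was set beside the diet difference of the 11456 tested genes with a 3′ UTR. Median log2 changes were 0.0042 for 7855 genes with 0 heptamers, 0.0066 for 2293 genes with 1, -0.015 for 807 genes with 2 and -0.018 for 501 genes with 3 or more. The quartiles were -0.49 and 0.48 in the first class and -0.39 and 0.34 in the last. The classes also differed in 3′ UTR length, with medians of 910 bases for 0 heptamers and 3310 bases for 3 or more. Genes are not replicates, and no test was made.

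**Figure D4:**
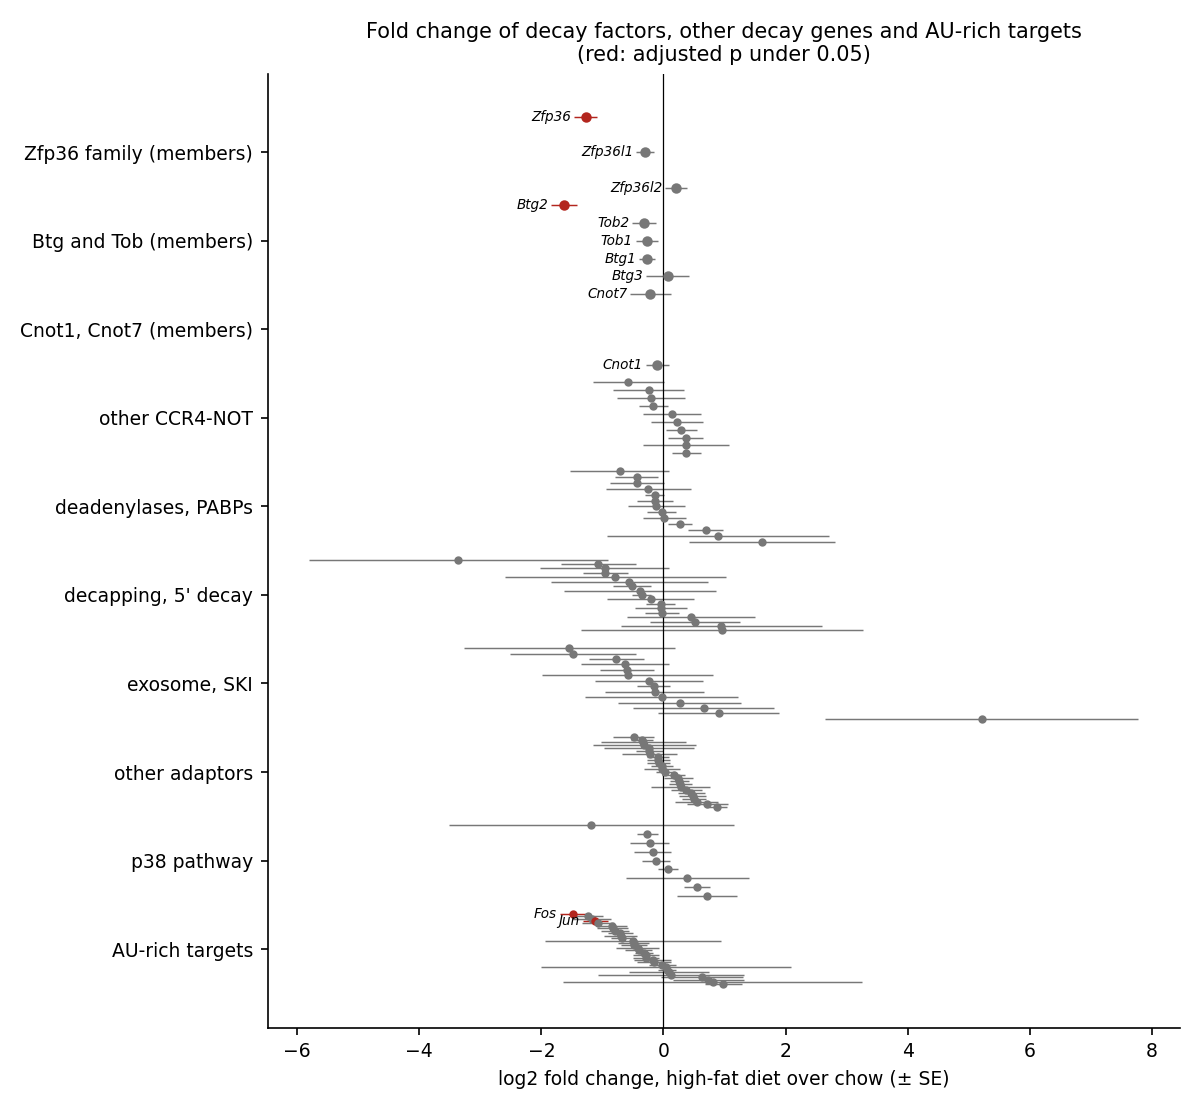
Log2 change of high-fat diet over chow with its SE (x axis) for the members, the 88 other decay genes in 6 lists, and 30 AU-rich targets (y axis, 1 point per gene, red where edgeR's adjusted p was under 0.05). Among the members Btg2 (-1.63) and Zfp36 (-1.27) are red, none of the other decay genes is, and Fos and Jun are red among the targets. The point farthest to the right is Exosc5, whose fitted fold change rests on levels near the floor.

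Zfp36 and Btg2 were compared with other immediate early genes, on a list that holds neither. Of its 25 genes edgeR called 7 lower and 0 higher (0.167% and 0.0909% of all genes). The diets did not overlap for 17, all lower (7.87% of all genes). The 7 were Nr4a1, Egr1, Fos, Atf3, Ccn1, Junb and Jun, and the list's median log2 change was -0.65. The count was 5, 3 and 8 without high-fat diet library 1, 2 and 3, 4, 3 and 2 without chow library 1, 2 and 3, and 0 without both libraries that stood apart, where the median was -0.79 and 1 of 13855 genes was called at all. The summed level was 11010, 8159 and 13060 CPM in libraries 1, 2 and 3 of the high-fat diet and 20140, 20760 and 19580 CPM in chow libraries 1, 2 and 3. Egr1, with Fos the most abundant of them, was at 2028, 1410 and 2225 CPM against 4115, 5448 and 4669 CPM (adjusted p = 0.00474 in edgeR). What this list's change has to do with the values of Zfp36 and Btg2 was not tested.

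Relative to the chow mean, Btg2 was at -1.98, -1.85 and -1.18 and Zfp36 at -1.55, -1.39 and -0.94 on the log2 scale in high-fat diet libraries 1, 2 and 3. The median of the immediate early genes was at -0.86, -1.12 and -0.39 in the same libraries. Both members and the list were thus nearest to chow in library 3. The median over 12 p53 targets was -0.33, with 8 negative and 4 positive, and 0 of them passed in edgeR, DESeq2 or limma-voom and 1 had an unadjusted p under 0.05. Cdkn1a, the cell cycle inhibitor of that list, was at 58.8, 81.9 and 80.1 CPM on the high-fat diet and 103, 154 and 139 CPM with chow (adjusted p = 0.279 in edgeR), and Plk2 at 81.9, 63.8 and 70.5 CPM against 127, 102 and 74.5 CPM. Eda2r, a death receptor named after its value was seen as second on the list by p, went the other way, at 78.0, 82.8 and 30.5 CPM against 37.0, 30.4 and 42.7 CPM (adjusted p = 0.655 in edgeR). The p53 median ran from -0.54 without high-fat diet library 2 to -0.024 without chow library 3, and was -0.098 without high-fat diet library 3. Relative to the chow mean it was at -0.053, 0.021 and -0.49 in high-fat diet libraries 1, 2 and 3, lowest in library 3.

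**Figure D5:**
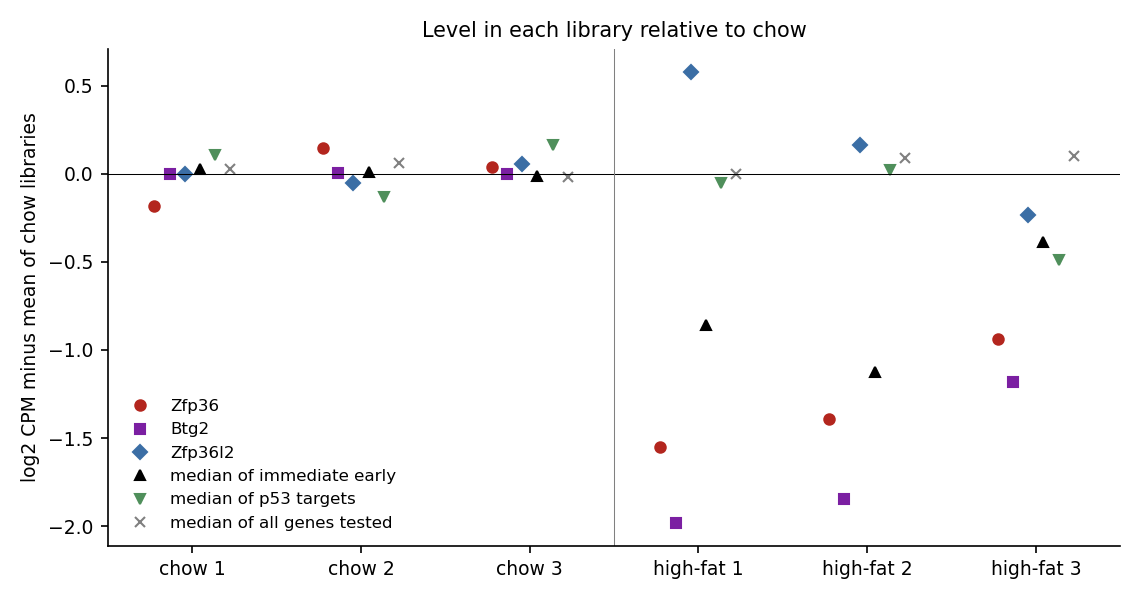
Log2 CPM of each library minus the mean of the chow libraries (y axis) for Zfp36, Btg2 and Zfp36l2 and for the medians of the immediate early genes, the p53 targets and all genes tested (x axis, the 6 libraries). In the high-fat diet libraries Btg2 (-1.98 to -1.18) and Zfp36 (-1.55 to -0.94) lie below the immediate early median (-1.12 to -0.39), and Zfp36l2 lies on both sides of 0.

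Across the 6 libraries Zfp36 and Btg2 were closely alike, with a Pearson correlation of 0.990 of their log2 CPM. It was 0.883 for the deviations from the diet means. Among 6863 genes averaging 10 CPM or more, those most like Zfp36 were Rnf213 (0.998), Nr4a1 (0.997), Bhlhe40 (0.996), Nxn (0.994) and Btg2. Those most like Btg2 were Slc35a5 (0.997), Alg10b (0.995), Helz2 (0.995), Dhx30 (0.994) and Fosl2 (0.994), with Zfp36 in place 9. Rnf213, Nr4a1, Bhlhe40 and Helz2 were called lower by edgeR. Nxn, Slc35a5, Alg10b, Dhx30 and Fosl2 were not (adjusted p from 0.353 to 0.919 in edgeR). Mean levels on the high-fat diet and on chow were 17.9 and 26.1 CPM for Nxn and 5.22 and 17.1 CPM for Slc35a5. Of the other members, Tob1 (0.888 with Btg2 and 0.836 with Zfp36) was the most alike over the 6 libraries and Zfp36l2 ran the opposite way (-0.571 and -0.570). For the deviations from the diet means, Tob1 was at 0.691 with Btg2 and 0.385 with Zfp36, below Cnot7 at 0.777 and 0.907. Tob1 and Tob2 correlated with each other at 0.880 over the 6 libraries and at 0.830 in the deviations. All of these correlations are over only 6 libraries that share the division by diet, and they are a description.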

How the data were processed

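RNA-seq reads of 6 libraries, 3 high-fat diet and 3 chow, had been aligned with Bowtie2 and counted with featureCounts (GRCm38 and mm10), per the submitters' processing notes, and the authors deposited whole-number counts per Entrez gene ID with no normalization. Versions, the strand setting and the treatment of multiply mapped reads are not given in the sources used here. Of the 27179 IDs, 25275 matched a symbol in RefSeq, 18 in GENCODE M21 and 1886 none.

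From the counts, edgeR 4.0.16 (R 4.3.3, limma 3.58.1) was run with filterByExpr (minimum count 10), TMM factors and the quasi-likelihood test of diet, two-sided, with Benjamini-Hochberg adjustment over 13202 genes and calls at an adjusted p under 0.05. Each SE is the absolute log2 change over the square root of F. DESeq2 1.42.0 on the same genes, limma-voom, other scalings and filters, a replicate block and leaving out libraries were alternatives. Depth was 14930394 to 18217818 counts per library, and replicates differed by more than counting error. On simulated counts for this comparison (13202 genes, 200 changed, 3 runs), the fit recovered 6.33% of 2-fold and 31.6% of 4-fold changes, and 5.04% of its calls were false. The changed genes were drawn at random from all tested genes. The members stood at higher levels, from percentile 73.0 (Btg3) to 99.6 (Zfp36l1), so these recovery rates are not those of the members.

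Members and lists were chosen with earlier results of these data known. Named genes were all members and, per decay and target list, up to 4 called genes or else the 2 with the smallest p, with the most abundant per kb. From the immediate early and p53 lists they were the 2 most abundant, and beside these the 5 genes most like Zfp36 and Btg2 in log2 CPM (prior count 2), without predicted genes. Pax7, Itga7, Myod1 and Eda2r and the other called immediate early genes were named outside this rule. Transcript lengths and 3′ UTRs came from GENCODE M21 and start site windows from RefSeq GRCm38.p6.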

Additional observations from a re-analysis of the deposited data

How the results depend on the processing

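With 3 libraries per diet, these values are limited to large differences. In the 10 planned settings that kept all libraries, 2 members were called, as reported. Leaving out each library in turn gave 1 to 2 (1 without high-fat diet library 2, chow library 2 or chow library 3, where Zfp36 missed the threshold), and leaving out both high-fat diet library 1 and chow library 3, an alternative chosen after seeing the data, gave 0, where 1 of all 13855 genes tested was called (34 with all libraries). Of the other decay and p38 genes, 1 was called with no filter on low counts, with DESeq2, with limma-voom, with robust dispersions and at an adjusted p under 0.1, and 0 to 1 with each library left out. Of the AU-rich targets, 1 was called with library totals only, 8 with no filter, 6 with DESeq2, 5 with limma-voom, 0 to 3 with each library left out and 0 without both libraries. The causes were not tested, and the fits that left libraries out also had fewer samples.

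Over 160 recomputed member log2 changes, 147 kept their direction and side of the threshold, 5 no longer passed and 8 reversed. The reversals were of small changes: without both libraries Btg3 was at -0.2992, Cnot1 at 0.1081 and Cnot7 at 0.1609. With each library left out, Zfp36l2 ran from -0.0095 to 0.39, Btg3 from -0.13 to 0.24, with a further negative value of -0.10, Cnot1 from -0.23 to 0.068 and Cnot7 from -0.50 to 0.043.

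Deviations from the diet means correlated at 0.025, 0.035 and -0.026 between same-numbered libraries. With 3 libraries per diet this cannot decide whether the numbers pair the samples, and the labels do not say. With the replicate block 1 other decay gene was called (0 without it), 2 members and 3 AU-rich targets, the log2 change was -1.29 for Zfp36 and -1.67 for Btg2, and 45 genes were called in all, against 34.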

Other observations

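The 3 chow values of Btg2 were closer to each other than counting error gives on average. A coefficient of variation over 3 values is itself uncertain, and this closeness was not tested. Their coefficient of variation was 0.229%, against 1.19% from counting at this depth, while the high-fat diet libraries varied by 31.6%. Of 1653 tested genes with a chow mean of at least 100 CPM, 25 had a coefficient of variation below their counting error, 1 had one below that of Btg2, and the median was 13.3%.

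Within the diets, Zfp36l2 deviated opposite to Zfp36 (-0.864 for the correlation of deviations from the diet means over 6 libraries) and to Btg2 (-0.923). Cnot7 deviated with Zfp36 (0.907) and opposite to Zfp36l2 (-0.856). High-fat diet library 1, which stood apart on the first principal component, was the highest for Zfp36l2 and Btg3 and the lowest for Zfp36, Btg2 and Cnot7. Whether that library's distance from the others accounts for these values was not tested. Btg4 and Zfp36l3, the remaining genes of both families, were at 0 in all 6 libraries.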
